A study of Mus musculus with 6 samples.

Results

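Inflammatory chemokines are small secreted or membrane-bound proteins that attract leukocytes, and 9 of their genes were followed here in sorted mouse Sertoli cells: Cxcl1, Cxcl2, Cxcl10, Cxcl16, Cx3cl1, Ccl2, Ccl7, Ccl5 and Ccl20. They were taken by gene symbol from the platform annotation, 9 of 19057 named genes on the array, and were measured by 14 of its 45281 probes. Each of 6 Illumina bead arrays was hybridised with RNA from Sertoli cells, which nurse developing germ cells inside the tubules of the testis. The cells came from mice aged 6 weeks of the C57B6J/129SvEv strain, carried a Sox9-GFP label and were sorted by fluorescence. The 3 Rb cKO arrays held the genotype Rb1 flox/-; Amh-Cre +, in which Cre under the Amh promoter, active in Sertoli cells, acts on the floxed allele of the retinoblastoma gene. The 3 Control arrays held the genotype Rb1 flox/- without Cre. Both groups therefore carried 1 null allele, the Control cells kept a single working copy, and loss of Rb1 and any action of Cre cannot be told apart here. Nothing in the labels ties the 3 samples of a group to different mice, so the p-values rest on a spread among samples that may be technical.

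Chemokines bind receptors coupled to G proteins on leukocytes and guide them along a gradient into tissue. They are classed by the spacing of their first cysteines into CC, CXC and CX3C types. Many of the inflammatory ones are transcribed when cells meet cytokines or microbial products, through the NF-kB factors and, for some, interferon-regulated factors. In the testis, Sertoli cells form a barrier that keeps germ cells apart from immune cells, and they can make several of these ligands when stimulated.

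Of the 9 chemokine genes, 8 were tested by 1 probe each, and no probe passed the threshold of an adjusted p under 0.05 in limma. The probes of Cxcl2, Cxcl16 and Cx3cl1 came nearest, with adjusted p-values of 0.0969, 0.0950 and 0.0950, and their 3 cKO arrays stood clearly above the 3 Control arrays. Over all probes tested, 31 of 21805 were called, which is 0.142%, and all 31 were higher in cKO. With the replicate number as a block, 0 were called (unadjusted limma p under 0.05 for 1975 higher and 1282 lower). The count was 8, 2 and 15 without cKO replicates 1, 2 and 3, and 0 without Control replicate 1, 2 or 3 (2016, 860 and 615 probes were then higher, and 606, 198 and 259 lower, at an unadjusted limma p under 0.05). When each gene was represented by its brightest probe alone, an alternative applied to the chemokines after seeing the data, Cxcl16, Cxcl2 and Cx3cl1 passed at adjusted p-values of 0.0429, 0.0453 and 0.0453 in limma. Under that alternative 56 of 12277 genes were called, all higher in cKO. In the main test, the difference was above 0 for all 8 tested probes, against 57% of all tested probes. All 3 cKO arrays exceeded all 3 Control arrays for 7 of the 8, against 8.04% of all tested probes, and the reverse, which held for 4.01% of all, was seen for no chemokine. At an unadjusted p under 0.05 there were 6 of 8, all higher in cKO, against 4.63% of all tested probes higher and 1.76% lower. The 3 probes of Cxcl2, Cxcl10 and Ccl20 entered the test through the cKO arrays alone, because none was above background on a Control array. Those of Ccl5, Ccl7 and Cxcl16 were above background on 3 cKO arrays but on only 1, 1 and 2 Control arrays. They too would have missed the filter without the cKO arrays, so the filter favours values higher in cKO. The genes were also chosen with earlier results known, so these counts are a description.

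**Figure D1:**
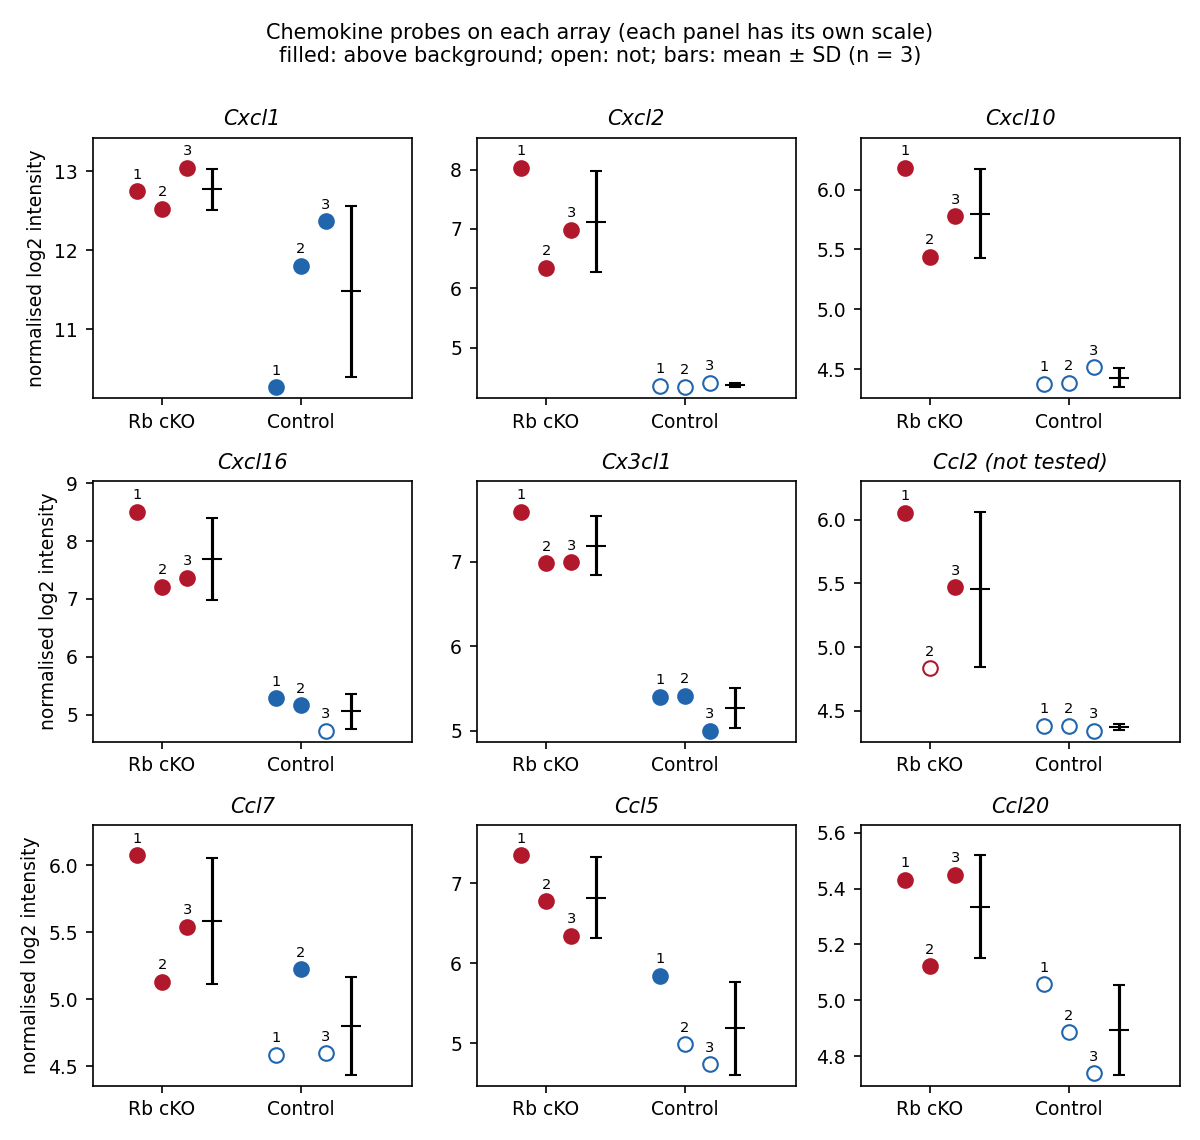
Normalised log2 intensity of 1 probe of each of the 9 chemokine genes (y axis, each panel on its own scale) on the 3 Rb cKO arrays and the 3 Control arrays, numbered by replicate; filled points were above background, open points were not, and bars show the mean ± SD (n = 3). The cKO points lie above the Control points in 8 of 9 panels, the exception being Ccl7, and the Control points of Cxcl2, Cxcl10, Ccl2 and Ccl20 are open.

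Cxcl1 and Cxcl2 attract neutrophils through the receptor CXCR2, and lie next to each other on chromosome 5. Cxcl10, an interferon-induced attractant of activated T cells through CXCR3, lies on the same chromosome. The 250 bases before the transcription start are shown for these 3 genes and for Ccl20, because each holds a match to a motif of the NF-kB or interferon-regulated factors named above. Capitals mark the matches. Sequences are from RefSeq promoters of GRCm38.p6, 5′ to 3′ on the gene's strand: Cxcl1 from chr5:90890995-90891244 on the plus strand, Cxcl2 from chr5:90903649-90903898 on the plus strand, Cxcl10 from chr5:92348890-92349139 on the minus strand, and Ccl20 from chr1:83116516-83116765 on the plus strand.
Cxcl1: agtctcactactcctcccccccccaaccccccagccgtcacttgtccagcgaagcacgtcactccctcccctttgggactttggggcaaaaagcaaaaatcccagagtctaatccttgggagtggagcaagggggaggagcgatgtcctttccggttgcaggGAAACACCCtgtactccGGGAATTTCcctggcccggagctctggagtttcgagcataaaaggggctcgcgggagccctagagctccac
Cxcl2: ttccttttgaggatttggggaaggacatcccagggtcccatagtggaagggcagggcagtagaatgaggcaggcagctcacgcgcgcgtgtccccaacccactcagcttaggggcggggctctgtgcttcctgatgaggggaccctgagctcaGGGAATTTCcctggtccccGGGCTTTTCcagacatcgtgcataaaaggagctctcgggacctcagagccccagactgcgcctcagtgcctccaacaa
Cxcl10: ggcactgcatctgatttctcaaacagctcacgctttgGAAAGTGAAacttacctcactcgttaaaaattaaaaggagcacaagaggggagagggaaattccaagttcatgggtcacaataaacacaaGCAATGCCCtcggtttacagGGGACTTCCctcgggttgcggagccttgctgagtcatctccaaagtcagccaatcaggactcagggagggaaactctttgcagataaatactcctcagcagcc
Ccl20: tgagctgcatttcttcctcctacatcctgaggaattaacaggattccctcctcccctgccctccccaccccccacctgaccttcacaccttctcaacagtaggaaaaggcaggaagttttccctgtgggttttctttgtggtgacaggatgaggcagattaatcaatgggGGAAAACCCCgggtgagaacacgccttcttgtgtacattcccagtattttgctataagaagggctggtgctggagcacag

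Promoters of 5 of the 9 genes were found in that table, those 4 and Cx3cl1. The letters searched, on both strands, were chosen with these sequences in view. The NF-kB motif GGGAATTTC was found in Cxcl1, from 71 to 63 bases before the start, and in Cxcl2, from 97 to 89 bases before it, and 0.234% of 32851 mouse promoters of the same length hold it. A looser form, GGGNNTTNC, which takes in that stretch, matched Cxcl1, Cxcl2, Cxcl10 and Ccl20, against 13.0% of all promoters. The Cxcl10 matches to it were GCAATGCCC on the other strand and GGGACTTCC from 103 to 95 bases before the start. In Ccl20 a pair of overlapping matches runs from 80 to 71 bases before the start. The interferon response motif GAAANNGAA matched Cxcl10 alone among the 5, as GAAAGTGAA from 213 to 205 bases before the start, against 7.13% of all promoters. The E2F motif TTTNNCGC, for the factors that the Rb protein binds, matched none of the 5, against 4.28% of all promoters. A match is a stretch of letters and says nothing of binding.

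Cxcl2 was above background on all 3 cKO arrays and on no Control array. Its probe ILMN_2778289 read 260.5, 114.8 and 170.0 intensity units on cKO arrays 1 to 3, against 40.2, 36.7 and 41.8 on Control arrays 1 to 3. On the normalised log2 scale these were 8.03, 6.35 and 6.98 in cKO, against 4.36, 4.34 and 4.40 in Control. The lowest cKO array lay 1.94 log2 units above the highest Control array, and array 1 was the highest in cKO. The means were 7.12 ± 0.85 in cKO and 4.37 ± 0.03 in Control (SD, n = 3 each), which places Cxcl2 at least 4.23-fold higher in cKO, with an adjusted p of 0.0969 in limma. Such a bound sets the cKO mean against the Control arrays' mean detection floor, where the floor of an array is its lowest level among probes above background, or the probe's own level where that is higher. The second Cxcl2 probe, ILMN_2811154, did not show this: it was above background on cKO array 3 alone, at 4.98, and its other values overlapped between groups at 4.39 and 4.63 in cKO and 4.66, 4.41 and 4.50 in Control.

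Cxcl1 was above background on all 6 arrays. Its probe read 12.75, 12.52 and 13.04 on the log2 scale in cKO, against 10.27, 11.80 and 12.37 in Control. The cKO arrays lay close together, with an SD of 0.26, while the Control arrays spread with an SD of 1.08, and only 0.16 log2 units separated the groups. The difference was 1.29 ± 0.53 (SE), or 2.45-fold, with a 95% interval from 0.06 to 2.53 and an adjusted p of 0.762 in limma. Without Control replicate 1, the dimmest array for Cxcl1, the difference was 0.69. Of the nearest 4 genes placed before Cxcl1 on the chromosome, the CXC genes Cxcl15, Cxcl3, Pf4 and Ppbp, none passed the filter on dim probes. Among these and Cxcl1 and Cxcl2, only the last 2 were tested. Cxcl5, another CXC ligand, had no named probe.

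Cxcl10 repeated the pattern of Cxcl2 at a smaller size. Probe ILMN_1214419 read 6.18, 5.44 and 5.78 in cKO, all above background, against 4.38, 4.39 and 4.52 in Control, none above background. The lowest cKO array was 0.92 log2 units above the highest Control array. The means were 5.80 ± 0.37 in cKO and 4.43 ± 0.08 in Control (SD, n = 3 each), at least 1.69-fold higher in cKO with an adjusted p of 0.199 in limma. Its other probe was above background on cKO array 3 alone, where it read 6.44, against 4.56 and 5.08 on the other cKO arrays and 4.53, 4.39 and 4.53 in Control.

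Cxcl16 and Cx3cl1 are the members made as transmembrane proteins, which hold leukocytes at the cell surface and are shed by the proteases ADAM10 and ADAM17. Cxcl16, the ligand of CXCR6 and a scavenger receptor, read 8.51, 7.21 and 7.37 in cKO with probe ILMN_2687586, against 5.29, 5.16 and 4.72 in Control. It was above background on 3 cKO arrays and 2 Control arrays, and the groups were 1.92 log2 units apart. The difference was 2.64 ± 0.40 (SE), or 6.22-fold, with a 95% interval from 1.70 to 3.58 and an adjusted p of 0.0950 in limma. The size depended on the background correction: it was 1.65 with normexp at offset 50 and 1.93 with uncorrected background, and 1.99 with intensities scaled to the 75th percentile and in the deposited log2 values. Its second probe, ILMN_1254723, was above background on cKO array 1 alone and overlapped between groups, with means of 4.91 ± 0.63 in cKO and 4.42 ± 0.13 in Control (SD, n = 3 each).

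Cx3cl1, the single CX3C chemokine and ligand of CX3CR1, was above background on all 6 arrays. It read 7.59, 6.98 and 6.99 in cKO, against 5.40, 5.41 and 4.996 in Control. In linear units these were 190.6, 161.5 and 170.7 in cKO, and 69.3, 64.3 and 66.4 in Control. The arrays of each group lay near each other, and 1.57 log2 units separated the groups. The difference was 1.92 ± 0.29 (SE), or 3.78-fold, with a 95% interval from 1.23 to 2.60 and an adjusted p of 0.0950 in limma, and it was 1.14 with normexp at offset 50. Cx3cl1 lies between the chemokine genes Ccl22 and Ccl17 on chromosome 8. Ccl17 differed by 0.51 with an adjusted p of 0.766 in limma, and Ccl22 did not pass the filter on dim probes.

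The CC members were dim. Ccl5, an attractant of T cells and monocytes, read 7.35, 6.78 and 6.34 in cKO, against 5.85, 4.99 and 4.74 in Control, and was above background on 3 cKO arrays and 1 Control array. The groups did not overlap, and the difference was 1.63 ± 0.40 (SE), or 3.10-fold, with an adjusted p of 0.338 in limma, and it was 0.92 with normexp at offset 50. Ccl4, another CC ligand, 4 genes away from Ccl5 on chromosome 11, read 7.03, 5.64 and 6.37 in cKO and 4.76, 4.79 and 5.48 in Control, and differed by 1.34 ± 0.41 (SE; adjusted limma p 0.571).

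Ccl2 and Ccl7 attract monocytes through CCR2 and are neighbours on chromosome 11. Ccl2 was above background on 2 arrays, cKO 1 and 3, which was 1 short of the filter, so it was not tested. It read 6.05, 4.83 and 5.47 in cKO, against 4.38, 4.38 and 4.34 in Control. The value of cKO array 2 is an upper limit, so no bound on the fold is given. Ccl7 read 6.07, 5.13 and 5.54 in cKO, against 4.59, 5.23 and 4.60 in Control with probe ILMN_2771176. Control array 2 lay above cKO array 2, so the groups overlapped. The difference of 0.78 ± 0.34 (SE) had a 95% interval from -0.02 to 1.58 and an adjusted p of 0.766 in limma. Its other probe was not above background on any array. No probe of the next 3 genes of that cluster, Ccl11, Ccl12 and Ccl8, passed the filter.

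Ccl20, the ligand of CCR6, showed the smallest difference of the 8 tested genes. It read 5.43, 5.12 and 5.45 in cKO, all above background, against 5.06, 4.88 and 4.74 in Control, none above background. The groups were 0.07 log2 units apart, with an adjusted p of 0.766 in limma. The bound, as defined for Cxcl2, put the cKO mean 1.23-fold above the Control arrays' mean detection floor. The fitted difference of 0.44 had a 95% interval from -0.15 to 1.03, which takes in no change. The bound is therefore a point value and does not show that Ccl20 was higher in cKO. Its other probe was not above background on any array, with means of 4.34 in cKO and 4.40 in Control.

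**Figure D2:**
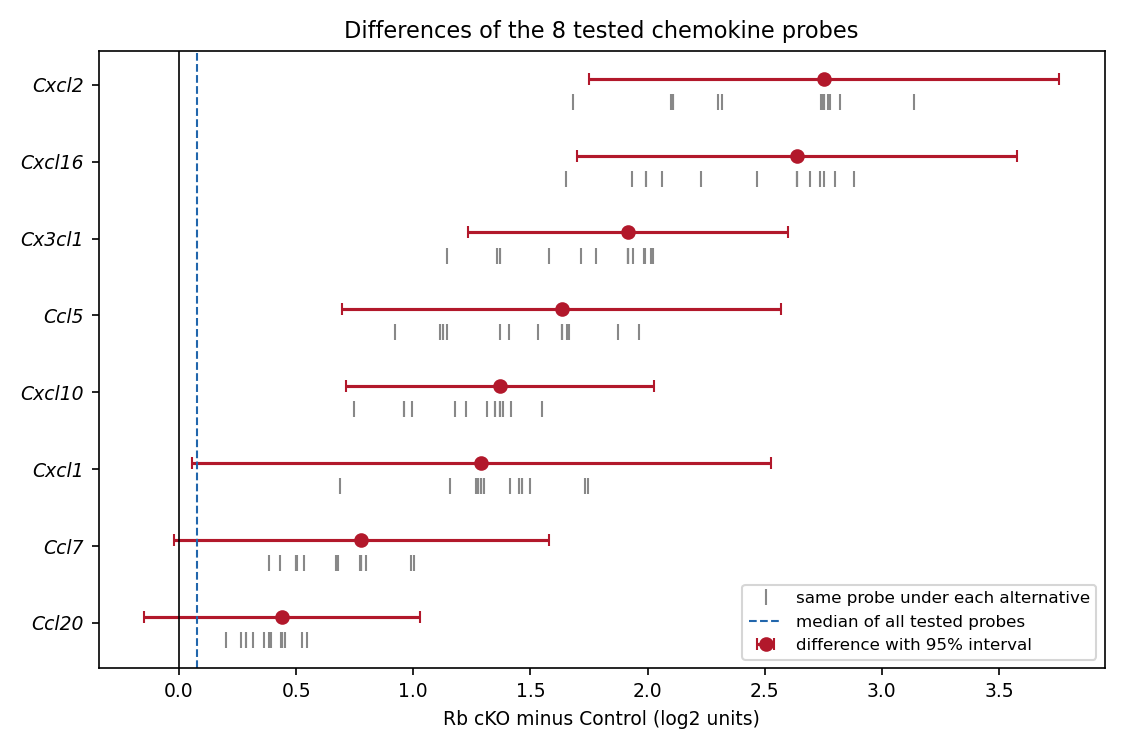
Rb cKO minus Control in log2 units (x axis) for the 8 tested chemokine probes, with 95% intervals from limma (n = 3 arrays a group); grey ticks give the same probe under each alternative and the dashed line is the median of all tested probes, 0.08. Every tick lies above 0; for Cxcl2, Cxcl10 and Ccl20 the Control arrays gave only an upper limit, so their points are fitted values and not bounds.

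The tested chemokines had a median difference of 1.50 log2 units, or 1.46 with the 3 bounded genes at their bound. The median over all tested probes was 0.08, and over the brightest probe of each of 12277 tested genes it was 0.12. The fitted difference of Cxcl2 was 2.75, against 1.68 with normexp at offset 50, 2.10 with uncorrected background and 2.11 in the deposited log2 values, and that of Cxcl10 was 1.37, against 0.75 with normexp at offset 50. Within the cKO group, array 1 was the highest for 6 of the 8 probes, array 3 for Cxcl1 and Ccl20, and array 2 was the lowest for 7 of 8. The mean over the 8 probes, each centred on its own mean over the 6 arrays, was 1.25, 0.45 and 0.70 on cKO arrays 1 to 3, against -0.84, -0.71 and -0.85 on Control arrays 1 to 3. The arrays of cKO replicate 1 and Control replicate 3 lay farthest out on the first principal component of all tested probes, at -113.9 and 110.2, while the other 4 lay between -34.3 and 31.4. Without both arrays, Cxcl2 differed by 2.32, Cxcl16 by 2.06, Cx3cl1 by 1.58, Cxcl10 by 1.22, Cxcl1 by 1.75, Ccl5 by 1.14, Ccl7 by 0.43 and Ccl20 by 0.31, and the median of the 8 was 1.40.

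By root mean square difference over the 6 arrays, the gene most like that mean pattern was Syt12, a synaptotagmin, at 0.08 log2 units. Parp14, an ADP-ribosyltransferase, followed at 0.12, and Eif4ebp1, an inhibitor of cap-dependent translation, at 0.15. Rasl11a was at 0.16, Aebp1 at 0.16, Gins1, a replication factor, at 0.17, H2-Eb1, an MHC class II chain, at 0.18 and Tlr2 at 0.18. Among the chemokines, Cxcl10 was nearest to the mean pattern at 0.15 and Cxcl1 farthest at 0.69. With 6 arrays, a likeness of this kind is a description.

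Of 29 other chemokine ligand genes measured, 7 passed the filter and none was called, with a median difference of 0.50. Ccl4, given above, had the smallest p. Cxcl12, a ligand of CXCR4, differed by 1.15 ± 0.40 (SE) and read 7.94, 6.75 and 8.06 in cKO, against 6.35, 6.75 and 6.21 in Control, so array 2 was nearly equal in the groups. Ccl28, an epithelial chemokine, differed by -1.14 ± 0.64 (SE), Ccl25 by 0.50 and Ccl27a by 0.42, and each overlapped between groups. Ccl28 read 5.48, 7.89 and 5.64 in cKO, against 7.81, 7.51 and 7.10 in Control, so cKO array 2 lay above every Control array. No probe of Cxcl3, Cxcl9, Cxcl11, Ccl3 or Ccl8 was above background on any array.

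Most receptors of these ligands were not above background. Of 22 measured receptor genes, 15 were not above background on any array with any probe, among them Cxcr2, Cxcr3, Cxcr6, Ccr1 and Ccr2, which are receptors for Cxcl1 and Cxcl2 (Cxcr2), Cxcl10 (Cxcr3), Cxcl16 (Cxcr6), Ccl5 (Ccr1), and Ccl2 and Ccl7 (Ccr2). Tested receptors numbered 7, with a median difference of 0.42, and none was called. Ccr6, the receptor of Ccl20, read 7.71, 7.38 and 7.29 in cKO, against 7.09, 5.96 and 5.68 in Control, and differed by 1.21 ± 0.40 (SE; adjusted limma p 0.631). A second Ccr6 probe gave 0.56 and overlapped between groups. Cx3cr1, the receptor of Cx3cl1, differed by 0.52 ± 0.27 (SE), and the decoy receptor Ccrl2 by 0.72 ± 0.30 (SE). Ackr4, a scavenger of CC chemokines, was at -1.32 and Cxcr5 at 0.42, and both overlapped between groups. Ackr4 read 4.53 on cKO array 1, against 6.67 and 8.08 on cKO arrays 2 and 3.

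The transcription factors that drive chemokine genes, and their feedback inhibitors, were measured by 17 of 20 listed genes, of which 16 were tested. None was called, and the median difference was 0.82. All 3 cKO arrays lay above all 3 Control arrays for 8 of the 16, where the share over all tested probes was 8.04%. Irf1, an interferon-regulated factor, read 11.81, 11.02 and 11.64 in cKO, against 8.22, 9.46 and 10.05 in Control, and differed by 2.25 ± 0.49 (SE; adjusted limma p 0.254). Its other tested probes gave 2.63, 0.50 and 0.49. The NF-kB subunit Relb differed by 1.99 ± 0.44 (SE), the nuclear cofactor Bcl3 by 1.96 ± 0.48 (SE), Cebpb by 1.87 ± 0.41 (SE), and Tnfaip3, an inhibitor of NF-kB signalling that NF-kB induces, by 1.36 ± 0.30 (SE). The main NF-kB activator subunit Rela was at -0.22 and its inhibitor Nfkbia at -0.18 and 0.35 with its probes.

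Few of the usual inducers were measurable. Of 21 cytokines, cytokine receptors and Toll-like receptors, 7 were tested, with a median of 0.16 and none called. No probe of Tnf, Il6, Ifng or Ifnb1 was above background on any array. Tlr2, a receptor for bacterial lipoproteins, read 6.18, 5.82 and 6.08 in cKO, against 4.63, 4.70 and 4.53 in Control, at least 1.98-fold higher with an adjusted p of 0.124 in limma. Il1a differed by 0.71, the adaptor Myd88 by 0.44, Lta by -0.58, and the interferon gamma receptor Ifngr1 by -1.68. Of 10 shedding proteases and mRNA decay factors, 9 were tested, with a median of 0.43 and none called. Mmp9 differed by 1.55 ± 0.29 (SE), the decay factor Zfp36l1 by 1.30 ± 0.43 (SE), Zc3h12a by 0.90, Zfp36 by 0.57 and Mmp2 by 0.43.

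**Figure D3:**
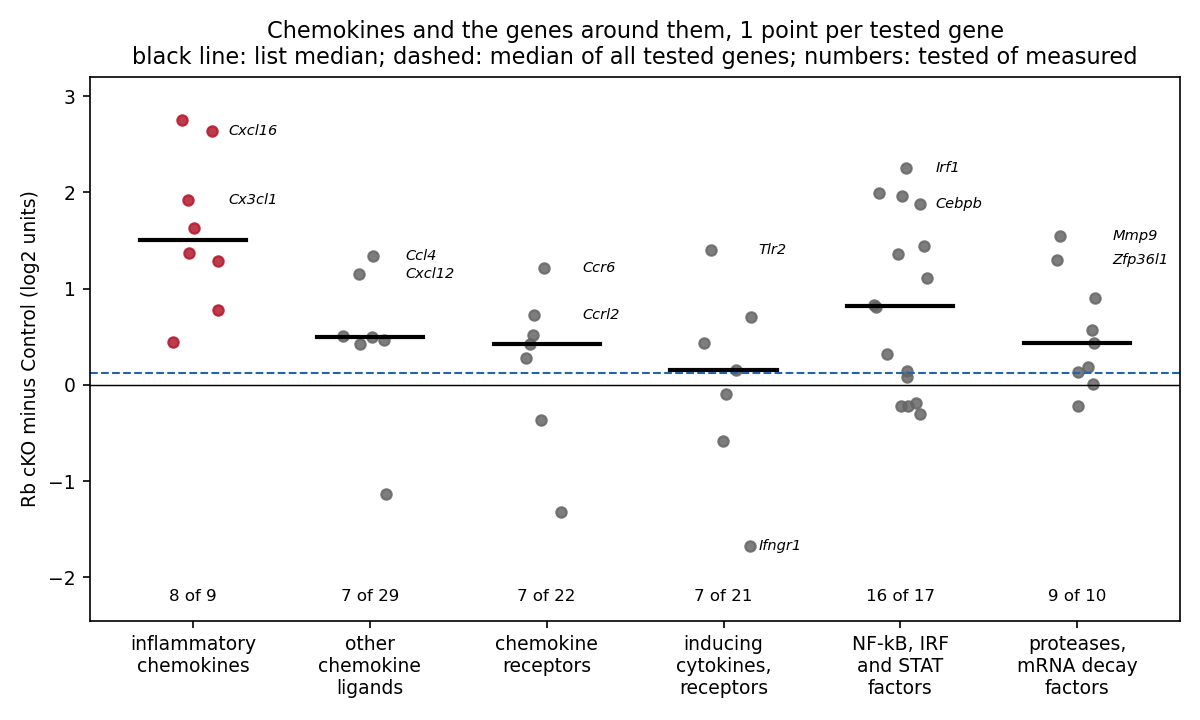
Rb cKO minus Control in log2 units (y axis) for the brightest tested probe of each gene, by list; black lines are list medians, the dashed line is the median of all tested genes (0.12), numbers give genes tested of genes measured, and the 2 genes of smallest p are named. The chemokine points run from 0.44 to 2.75 with a median of 1.50, and the NF-kB, IRF and STAT factors have a median of 0.82.

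In sorted cells, more RNA per cell and more cells of a type cannot be told apart, so markers of other testis cells stand beside these values. All 12 measured Sertoli markers passed the filter and were tested. None was called, and all 12 differences lay below 0, with a median of -0.44. Of the 5 with the smallest p, Sox8 differed by -1.04, Trf by -2.54, Dhh by -0.52, Inha by -2.69 and Sox9 by -0.39. Inha, an inhibin subunit, read 5.42, 9.92 and 12.24 in cKO and 11.59, 11.20 and 12.85 in Control, so cKO array 1 was far below the others and the groups overlapped. The same held for Trf, at 4.57, 7.77 and 9.97 in cKO and 9.64, 9.19 and 11.10 in Control. The summed normalised intensity of the 12 Sertoli markers ran from 47200 to 57000 in cKO and from 55968 to 68680 in Control. Macrophage and leukocyte markers ran from 9447 to 9879 in cKO and from 7431 to 10934 in Control, so these sums overlapped. Mrc1 and Aif1 were the largest terms of the sums. Mrc1 read 10.67, 11.73 and 11.65 in cKO, against 12.03, 12.32 and 12.19 in Control. Aif1 read 12.32, 11.98 and 12.07 in cKO, against 12.32, 11.10 and 10.89 in Control. Of 23 measured markers, 11 were tested, 10 of them with a difference above 0, with a median of 0.70, and none was called. All 3 cKO arrays lay above all 3 Control arrays for 5 of the 11, against 8.04% of all tested probes. The reverse held for 1, Mrc1, against 4.01% of all. The leukocyte markers Ptprc, Itgam, Tyrobp, Nkg7, S100a8 and S100a9 were not above background on any array. Cd74 differed by 1.70 ± 0.31 (SE), H2-Ab1 by 1.54, H2-Aa by 1.35, Laptm5 by 1.13 and Mrc1 by -0.83.

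Endothelial markers ran from 1847 to 4560 in cKO and from 574 to 952 in Control, with 9 of 12 tested and a median of 1.02, and Kdr was not above background on any array. Robo4 differed by 3.69 with 1 probe and by 0.23 and 0.31 with its other tested probes, Emcn by 1.39, Esam by 1.31, Vwf by 1.27 and Egfl7 by 0.98. The first of these Robo4 probes is the largest term of the endothelial sum on each cKO array. It read 11.46, 9.96 and 10.22 on the log2 scale in cKO, against 6.97, 7.32 and 6.29 in Control. Peritubular myoid markers ran from 10927 to 20658 in cKO and from 5476 to 10165 in Control, with 6 of 8 tested and a median of 0.84. Cnn1 and Tagln were not above background on any array, and the differences were led by Acta2 at 1.81, Tpm2 at 1.33, Tpm1 at 0.91, Des at 0.77 and Actg2 at 0.75. Leydig markers ran from 2367 to 8659 in cKO and from 1239 to 3054 in Control, with 5 of 7 tested and a median of 1.26. Hsd3b1 was not above background on any array, and the tested genes were Insl3 at 1.60, Cyp17a1 at 1.26, Cyp11a1 at 0.37, Hsd3b6 at -0.09 and Star at least 3.11-fold higher. In all 3 lists array 1 was the highest of the cKO arrays and array 2 the lowest. The same order held for the leukocyte and spermatogonia sums, and for the mean of the centred chemokine values. By summed intensity, the chemokines were instead highest on cKO array 3, at 9113, against 8106 and 6487 on cKO arrays 1 and 2. Most of that sum was Cxcl1, which read 12.75, 12.52 and 13.04 on the log2 scale in cKO. Taken probe by probe, array 1 was the highest of the cKO arrays for 6 of the 8 tested chemokine probes. Spermatogonia markers ran from 4623 to 5583 in cKO and from 3681 to 4603 in Control, with 8 of 9 tested and a median of 0.67: Dppa4 differed by 1.23, Dazl by 0.90, Sohlh1 by 0.68 and Stra8 by 0.67, and Ret was at least 1.57-fold higher. Spermatocyte and spermatid markers ran from 96602 to 118305 in cKO and from 92223 to 116915 in Control, with 9 of 10 tested and a median of 0.21: Acrv1 differed by 0.44, Akap4 by 0.44, Acr by 0.36, Tnp2 by 0.23 and Hspa2 by 0.21. No gene of these lists was called. The part of other cells in the chemokine differences was not tested.

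**Figure D4:**
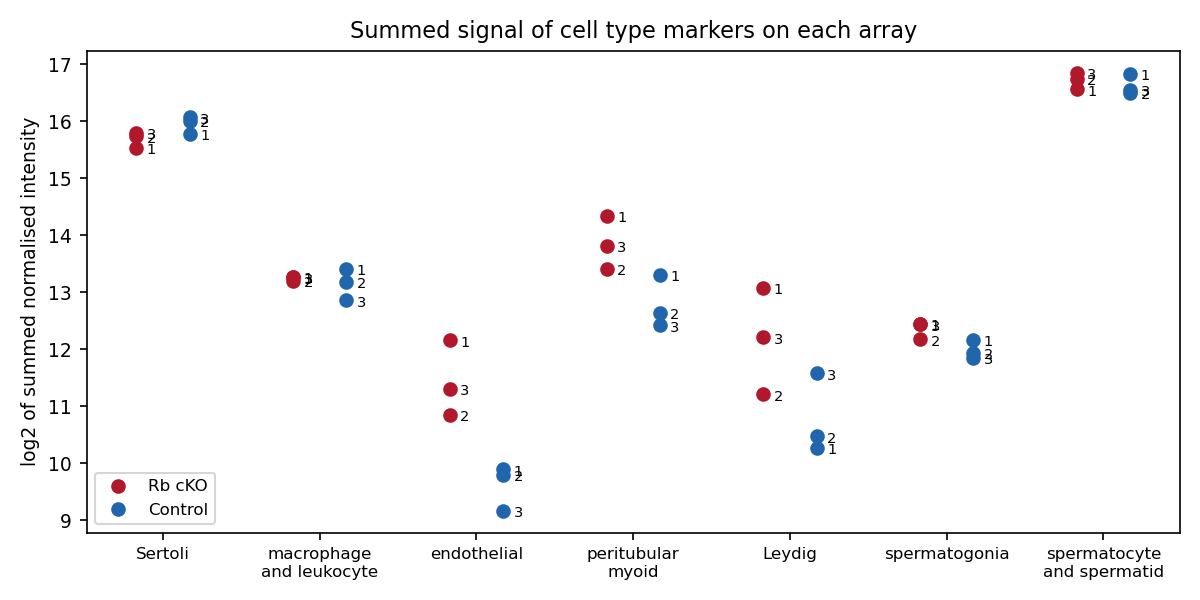
Log2 of the summed normalised intensity of each cell type's markers (y axis) on the 3 Rb cKO and 3 Control arrays, numbered by replicate, using the brightest probe of each measured marker. The endothelial and peritubular sums are higher on all cKO arrays than on any Control array, and the Sertoli, leukocyte, Leydig and spermatid sums overlap between groups. Mrc1, lower on all cKO arrays, and Aif1 are the largest terms of the leukocyte sums. The largest term of each endothelial cKO sum is 1 Robo4 probe, whose difference the other tested Robo4 probes did not match. The lowest cKO spermatogonia sum, 4623, lies just above the highest Control sum, 4603.

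Rb1 was measured by 2 probes, both lower on all cKO arrays. They differed by -1.22 ± 0.32 (SE) and -0.98 ± 0.34 (SE), with adjusted p-values of 0.399 and 0.668 in limma. A probe outside the deleted part checks nothing about the deletion, and where these lie was not determined. The share of probes above background ran from 43.0% to 50.04% on cKO arrays and from 45.99% to 53.5% on Control arrays, with a median of 43 to 44 beads a probe, and the standard error between beads of the chemokine probes was 2.69% to 8.50% of their intensity.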

How the data were processed

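Per the file headers, the authors' scanner tables hold each probe's mean intensity over its beads, the spread between beads, their number and a detection score. Per the submitters' processing notes, BeadStudio was used; the deposited intensity values are linear and unscaled. The deposited detection score rises with signal, and a score over 0.95 counted as above background. The deposited series table holds log2 values: the log2 of intensity was shifted by the 75th percentile of each array and then centred probe by probe on the median. This formula joined all 45281 probe IDs to scanner probes of their own, within 0.00033. The platform annotation named 1 symbol for 34885 probes and several symbols for 18, while 10378 had none.

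Intensities were corrected and quantile-normalised with neqc (offset 16) in limma 3.58.1 under R 4.3.3. Probes above background on at least 3 of 6 arrays entered a two-sided lmFit and eBayes test of group, adjusted by Benjamini-Hochberg over 21805 probes. In data simulated for this comparison of 3 and 3 arrays on those 21805 probes, 0.80% of probes changed 2-fold, 40.4% changed 4-fold and 69.6% changed 8-fold were called. The number of arrays limits the precision.

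Each array's deviation from its group mean, set against that of the array of the same number, gave correlations of 0.262, 0.410 and 0.473 across the tested probes. By the rule of 0.1 the numbers were taken as pairing the arrays, and that pairing comes from the data only. Arrays of different numbers were not set against each other, so these correlations alone cannot show that the numbers pair the arrays. The main test was of group alone and did not use the pairing. It entered only through the replicate block among the alternatives, under which 0 probes were called. The genes described were every probe of the 9 chemokines, both Rb1 probes, the genes of smallest p in each list, up to 5, and the 8 genes nearest the chemokines' mean pattern, leaving out clone and predicted names; other genes were chosen after their values were seen. The members and lists were chosen with earlier results of these data known. Listed genes without a named probe were not analysed here.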

Additional observations from a re-analysis of the deposited data

How the results depend on the processing

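The difference stayed above 0 for every tested chemokine probe under all 16 alternatives in which it was tested, and no chemokine probe was called except with 1 probe per gene, where 3 passed (2.75 for Cxcl2, 2.64 for Cxcl16 and 1.92 for Cx3cl1, values that this alternative does not alter). That setting, added for the chemokines after seeing the data, tests fewer probes: 12277 in place of 21805. The median of the 8 was 1.03 with normexp at offset 50 and 1.20 without background correction; without single replicates it ran from 1.34 to 1.65. With detection required on all 6 arrays, 2 chemokine probes were left. Across the array, 31 probes were called; the count was 1 with no filter on dim probes, 13 with uncorrected background, 9 with normexp at offset 50, 0 with the replicate block (unadjusted limma p under 0.05 for 1975 in the higher direction and 1282 in the lower), 6 without both Rb cKO replicate 1 and Control replicate 3, 56 with 1 probe per gene, and 0 to 15 without single replicates. It was 8, 2 and 15 without cKO replicates 1, 2 and 3, and 0 without any one Control replicate. With the replicate block the chemokine of smallest adjusted p was at 0.113, and the block changed no call of a chemokine. Low signal limits Cxcl2, Cxcl10, Ccl2 and Ccl20, whose Control arrays were not above background.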
